A study of Mus musculus with 44 samples.

Results

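The cochlear nucleus of mice was compared 24 h after removal of the cochlea on the same side at postnatal day 21 (P21) with the nucleus of the opposite side. The comparison rests on 6 of the 44 arrays of the series, chosen by the age, time and side in their labels. They are 3 arrays of the deafferented nucleus, ipsilateral to the removal, and 3 of the contralateral control nucleus. The replicates came from different tissue pools, dissected fresh and frozen. The number of animals per pool, their strain and their sex are not given in the sources used here. The control side comes from operated animals and no unoperated mice were measured, so a rise or a fall is a difference between the sides and can lie in either nucleus. All 15323 probe sets that passed a filter on dim signal were tested, and 8886 genes were each represented by their brightest probe set. The other groups used here are the same 2 sides 12 and 48 h after surgery at P21 and 24 h after surgery at postnatal day 7 (P7), with 3 arrays a side, and 6 h after surgery at P21, with 2 arrays a side.

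The cochlear nucleus is the first brain station of hearing and receives all axons of the auditory nerve. Removing the cochlea destroys the nerve's cell bodies or their peripheral supply, silences the input and makes the nerve endings in the nucleus degenerate. At P7 the auditory system of the mouse is before the onset of hearing, and at P21 it is hearing. Brain tissue that loses an input is known to respond through astrocytes, which receive cytokines of the interleukin-6 family through the shared receptor chain gp130 and the transcription factor STAT3, and through microglia, which take up debris. Neurons respond through immediate early genes, whose transcription follows synaptic activity, and, where their axons are cut, through injury factors such as ATF3 and JUN.

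Levels are log2 values, a change is the deafferented mean minus the control mean on that scale with the standard error (SE) of the fit, and a probe set or gene was called when its limma p-value, adjusted over all 15323 probe sets, was under 0.05. The 6 arrays had medians between 6.022 and 6.052, and control replicate 1 correlated least with the others of its group (r from 0.9894 to 0.9904). Neuronal, astrocytic and oligodendrocytic markers were high on both sides (Snap25, 13.43 to 13.68 over the 6 arrays; Aldoc, 13.25 to 13.55; Mbp, 14.20 to 14.79). Genes of the neighbouring cerebellum were also present (Gabra6, 9.37 to 10.29), as were those of the choroid plexus (Ttr, 8.90 to 14.72), and the T-cell gene Cd3g lay at 3.02 to 3.12, under the background level of 5. Of the markers named for cochlear nucleus neurons, Kcna1 (10.74 to 11.36) and Pvalb (12.41 to 12.71) were high and Gria4 was near background (3.93 to 5.11). The choroid plexus and meningeal genes were lower on the deafferented side, as described with their values below, and fewer cells of a type cannot be told apart from less RNA per cell in such pooled tissue.

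The response was made mostly of increases. Of the 15323 probe sets, 124 were called (0.809%), 97 of them higher (0.633%) and 27 lower (0.176%) on the deafferented side, and 1028 had an unadjusted p under 0.05. They stand for 77 genes that rose and 23 that fell by at least 1 probe set, and 6 called probe sets carried several gene symbols or none. The increases had a median of 1.19, 63 exceeded 1 and 24 exceeded 2, while the decreases had a median of -0.95, 12 exceeded 1 in size and the 3 beyond 2 all belonged to Ttr. In all 97 increases the 3 deafferented arrays lay above the 3 control arrays, against 6.17% of all probe sets. Of the 27 decreases 24 did not overlap, against 8.21%. The calls rest on these same 6 arrays, so this separation follows largely from the choice and is no separate support. The increases started from low levels (median control mean 6.35, 31 of them under the background level of 5 in the control nucleus) and the decreases from higher ones (median 8.78, 1 under 5). Where a side lies under 5, the level taken here as background, the printed change is a difference of measured values and not an exact ratio of RNA.

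Most probe sets lay close to 0. The median change over all probe sets was -0.03, 44.2% lay above 0, and 90% of probe sets lay between -0.38 and 0.38. Calls were spread over the range of levels: 0.962% of the 1663 probe sets with a mean under 5 were called, 0.621% of the 5317 between 7 and 9, and 0.738% of the 813 at 11 or more. The SE fell from a median of 0.28 in the dimmest of these classes to 0.14 in the brightest, so that smaller changes could be called among bright probe sets. The arrays with the same replicate number on both sides deviated together (r from 0.158 to 0.387), and with that pairing as a block in the fit 249 probe sets were called, 176 higher (1.15%) and 73 lower (0.476%), among them all 124. The count depended on 2 arrays: it was 71 without control replicate 1 and 63 without deafferented replicate 2, and between 98 and 119 without any other.

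**Figure D1:**
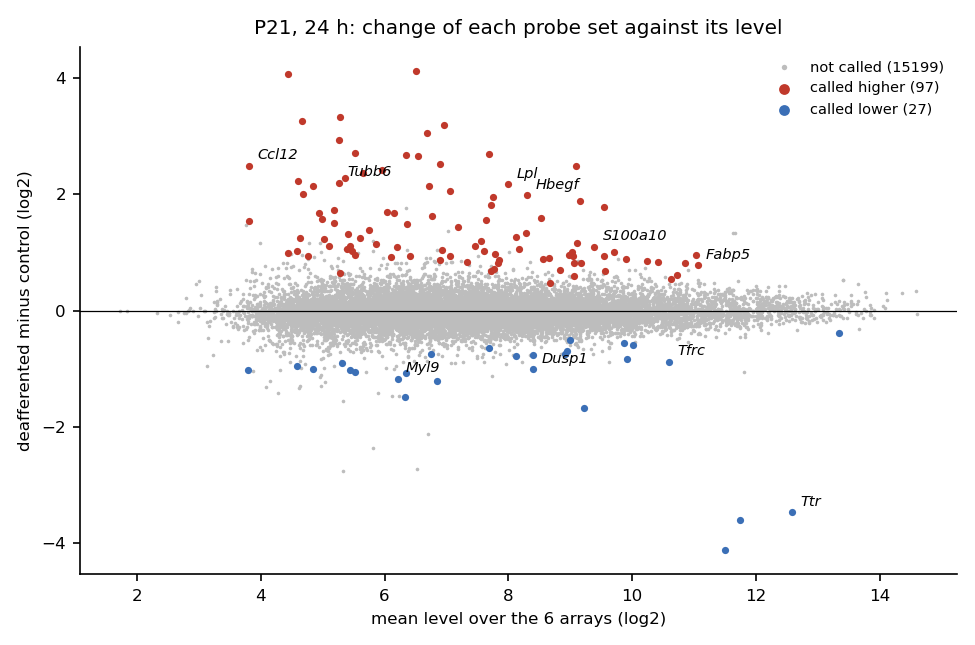
Change of each of the 15323 probe sets (deafferented minus control, log2) against its mean level over the 6 arrays (log2), with the 97 called higher in red, the 27 called lower in blue and the rest in grey. Most red points lie at low to middle levels, and the 3 lowest blue points are the probe sets of Ttr.

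Genes of gp130 signalling rose at the level of ligand, receptor and targets while the shared signalling chain did not pass. Of the 20 measured genes of that list, 5 rose and none fell (of all 8886 genes, 0.765% rose and 0.236% fell), and 9 had deafferented arrays above all controls, against 6.34% of all genes. Counts over lists use the brightest probe set of each gene. These shares of all genes are the background for every list below, with 9.07% of all genes lower without overlap. The median of the list was 0.13, against -0.03 over all genes, so most of its members did not follow the 5. The ligand Clcf1, a cytokine that acts on the CNTF receptor, was at 5.39, 5.59 and 5.87 in the control arrays and at 6.76, 7.27 and 7.25 in the deafferented arrays. That is a 2.78-fold rise (log2 change 1.48, SE 0.207, adjusted p = 2.24e-05) with no overlap, and its second probe set rose by 1.67. Osmr, the receptor subunit for oncostatin M, stood at 5.52, 5.76 and 5.63 in the controls and at 7.39, 8.01 and 7.93 in the deafferented arrays. It rose 4.40-fold (2.14, SE 0.307, adjusted p = 3.23e-05), and all 3 deafferented values lay more than 1 log2 unit above every control.

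The partner chain Il6st, which encodes gp130 itself, was at 9.07 to 9.49 in the controls and 9.15 to 9.34 in the deafferented arrays, a change of -0.00 (SE 0.152). Its dimmer probe sets gave 0.51 (SE 0.408) and 0.25 (SE 0.29), and neither passed. The kinases Jak1 (0.05) and Jak2 (0.18) and the CNTF receptor Cntfr (0.06) did not pass either. Stat3 lay at 8.77, 9.09 and 9.09 against 9.48, 9.88 and 9.58. Its groups did not overlap, but its change of 0.66 (SE 0.196) had an adjusted p of 0.151, and 0.00555 with the replicate block. Its second probe set gave 0.86 with an adjusted p of 0.127.

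Among the targets, Socs3, the feedback inhibitor that STAT3 induces, was at 4.65, 5.22 and 5.18 in the controls and at 7.29, 8.07 and 7.71 in the deafferented nucleus. It rose 6.40-fold (2.68, SE 0.372, adjusted p = 1.95e-05), and its dimmer probe set rose by 1.39. Bcl3, a co-factor of NF-kappa-B, rose by 1.24 (SE 0.201, adjusted p = 0.000252), from between 3.91 and 4.13 to between 4.96 and 5.49. Cebpd, a transcription factor of the acute phase, rose by 1.73 (SE 0.365, adjusted p = 0.00826), and its call was lost without control replicate 2 (adjusted p = 0.0880) or deafferented replicate 2 (0.0651). Socs2 (0.22) and Cebpb (0.57, adjusted p = 0.66) did not pass.

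Many genes of reactive astrocytes rose, and 1 gene of astrocyte identity did. Of 24 measured genes of reactive astrocytes, 11 rose and none fell, against 0.765% and 0.236% of all genes. The median change was 1.11, the highest of all lists examined. The lists were chosen with earlier results of these data known, so this rank is not independent of them. Without overlap, 16 were higher and 1 lower, against 6.34% and 9.07% of all genes, and 13 rose with the replicate block. Some of these genes are shared with other lists, Osmr and Clcf1 among them. Cd44, the hyaluronan receptor, was at 6.35, 6.28 and 6.42 in the controls and at 8.59, 9.25 and 9.28 in the deafferented arrays. It rose 6.46-fold (2.69, SE 0.264, adjusted p = 2.24e-08), with controls within 0.2 log2 units of each other, and its dimmer probe set rose by 3.33. Ptx3, a secreted pattern-recognition protein, rose from between 4.10 and 4.21 to 6.25, 7.47 and 6.92 (2.71, SE 0.303, adjusted p = 3.15e-07). S1pr3, a receptor for sphingosine-1-phosphate, was at 3.27, 3.75 and 3.42 in the controls, under background, and at 4.98, 6.36 and 5.78 in the deafferented arrays (2.23, SE 0.238, adjusted p = 1.34e-07). Deafferented replicate 1 was the lowest of the 3 for Cd44, Ptx3 and S1pr3, and yet above every control.

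Tm4sf1, a membrane protein of the tetraspanin-like family, rose by 1.88 (SE 0.233, adjusted p = 2.27e-06), from between 8.17 and 8.28 to between 9.68 and 10.47. Lcn2, an iron-siderophore binding protein, was at 7.14, 6.58 and 6.75 against 9.88, 8.72 and 7.29, so that deafferented replicate 3 lay only just above the controls. Its change of 1.81 (adjusted p = 0.0279) was 1.18 without deafferented replicate 1 (adjusted p = 0.424), and the call was also lost without deafferented replicate 2 (0.166) or any 1 control array (0.0567, 0.149 and 0.0859 for replicates 1 to 3).

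The intermediate filament genes were less clear. Gfap, the filament protein of astrocytes, was at 11.04, 11.14 and 10.81 in the controls and at 12.56, 12.28 and 12.16 in the deafferented arrays. Its groups were well apart, but its change of 1.34 had an SE of 0.551 in the fit over all 44 arrays and an adjusted p of 0.559. With the replicate block the adjusted p was 5.68e-05. Gfap was also called from only the compared arrays, from only the 24 h arrays, with array weights and without the replicate 3 arrays of 12 and 48 h. It was not called with other filters, scalings or variance models, or without any 1 array. Vim, the other filament protein of reactive astrocytes, was not called by its brightest probe set (0.88, adjusted p = 0.068, and 0.00286 with the block) but by both others (1.34, adjusted p = 0.00649, and 0.88, adjusted p = 0.0362). Of the 18 genes of astrocyte identity only Fabp7, a fatty acid binding protein, rose (0.83, adjusted p = 0.0147), which did not hold without control replicate 1 (0.131), deafferented replicate 2 (0.0653) or deafferented replicate 3 (0.112). The median of these 18 was -0.01, with 9 above 0, 3 higher without overlap and 3 lower without overlap. The glutamate transporter Slc1a3 (-0.15), the gap junction gene Gja1 (0.13) and Aldh1l1 (0.11) did not pass.

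**Figure D2:**
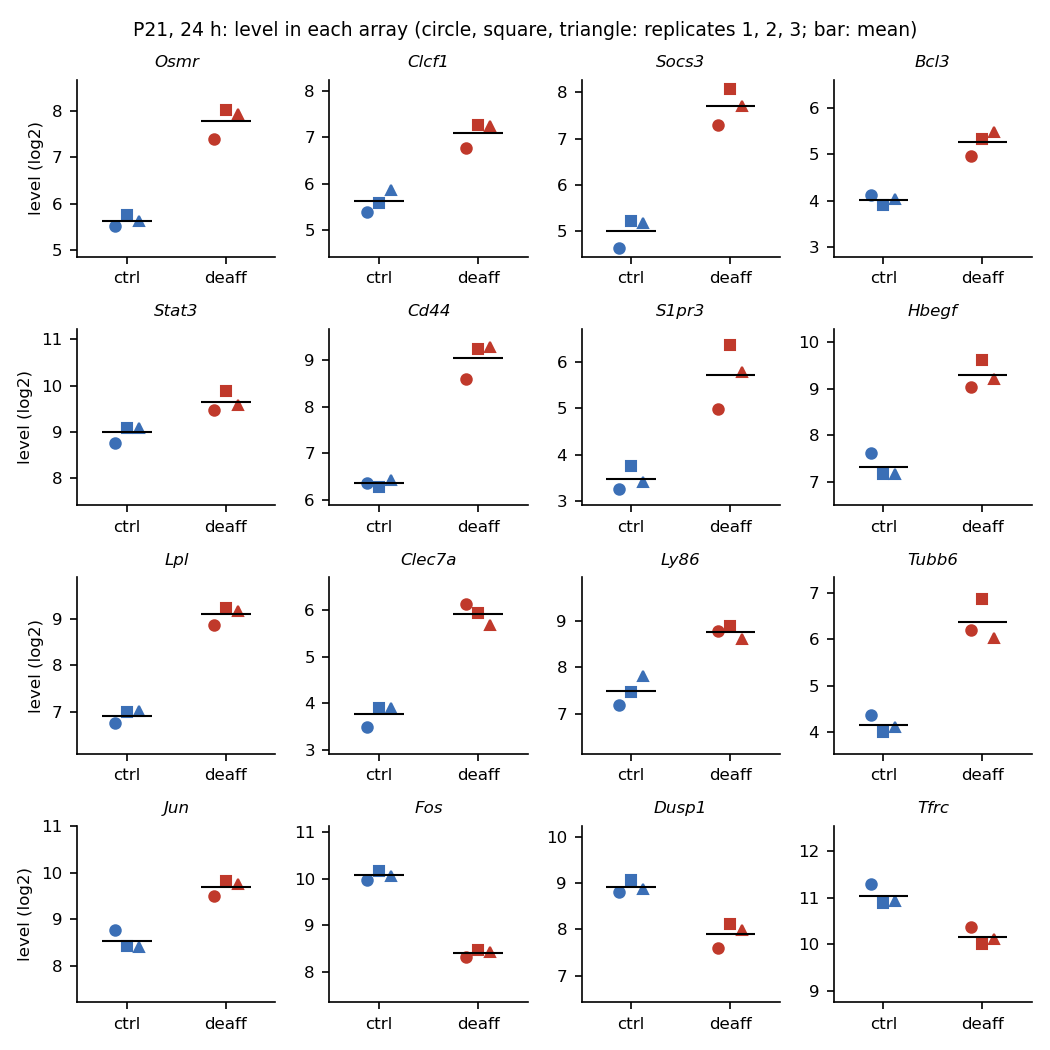
Level (log2) of 16 genes in each of the 3 control (blue) and 3 deafferented (red) arrays, with symbols for replicates 1 to 3 and a bar at the mean; every panel spans the same height in log2 units. The groups are apart in all 16 panels, above the controls from Osmr to Jun and below them in Fos, Dusp1 and Tfrc; Stat3 was not called in spite of its separation.

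Microglial and phagocyte genes rose in part. Of 16 measured genes of homeostatic microglia, 4 rose and none fell (median 0.27, 9 higher without overlap). Of 21 genes of activated phagocytes 6 rose and none fell (median 0.48, 14 higher without overlap, and 9 rose with the replicate block). Of all genes, 0.765% rose and 6.34% were higher without overlap. Clec7a, a beta-glucan receptor of activated microglia, was at 3.50, 3.91 and 3.90 in the controls and at 6.13, 5.94 and 5.68 in the deafferented arrays (2.15, SE 0.238, adjusted p = 2.79e-07). The controls were under background and the deafferented arrays were not. Lpl, lipoprotein lipase, rose 4.52-fold from 6.75, 6.98 and 7.01 to 8.87, 9.23 and 9.17 (2.18, SE 0.210, adjusted p = 1.94e-08), and its second probe set by 1.68. Ly86, a partner of the toll-like receptor homologue RP105, rose from 7.20, 7.46 and 7.82 to 8.78, 8.88 and 8.61 (1.26, SE 0.221, adjusted p = 0.000802).

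Mpeg1, the pore-forming perforin-2 of macrophages, rose by 1.62 (SE 0.274, adjusted p = 0.000447) and the Fc-receptor-like Fcrls by 1.19 (SE 0.214, adjusted p = 0.00122), neither losing its call without any 1 array. Smaller rises had calls that depended on the arrays used. They were those of the adaptor Tyrobp (0.97, adjusted p = 0.0325, lost without any array but control replicate 2, with p up to 0.275), the tetraspanin Cd53 (0.94, 0.0317, lost without replicate 1 or 2 of either side, up to 0.224), the cathepsin Ctsz (1.00, 0.0248, lost without any array, up to 0.219) and the glycoprotein Gpnmb (1.15, 0.0325, lost without any array but control replicate 2, up to 0.365). Without control replicate 1, deafferented replicate 1 or deafferented replicate 2, 2 of the 16 homeostatic genes were called. Some markers of resting microglia did not pass: Cx3cr1 changed by 0.17, Csf1r by -0.20, Tmem119 by -0.12 and P2ry12 by -0.49. Cx3cr1 was nonetheless higher without overlap. These are chosen members of the homeostatic list, in which 11 of the 16 genes lay above 0, Fcrls among them. Trem2, the receptor that signals through Tyrobp, changed by -0.21. The protein kinase C substrate Plek was called by its dimmer probe set (2.28, adjusted p = 0.0185) and not by its brighter one (1.04, 0.096, and 0.00532 with the replicate block).

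Of 15 measured cytokines and chemokines 4 rose, against 0.765% of all genes, and 12 lay above 0. Their number of calls was 1 without deafferented replicate 2, 2 without control replicate 1 and 3 without any other array. Ccl12, a monocyte attractant, rose from 2.85, 2.40 and 2.46 to 5.59, 5.51 and 4.09 (2.49, SE 0.470, adjusted p = 0.0022), and only deafferented replicates 1 and 2 were above background. Ccl3 was at 3.02 to 3.07 in the controls and at 3.73, 5.57 and 4.45 in the deafferented arrays (1.54, adjusted p = 0.00172), and without deafferented replicate 2 the change was 1.05 (adjusted p = 0.0653). Il33, an alarmin, rose by 1.05 (adjusted p = 0.0248, lost without control replicate 1 or deafferented replicate 2 or 3, up to 0.365) and Ccl9 by 0.92 (0.0325, lost without any array but deafferented replicate 3, up to 0.326). Il1b changed by -0.57 and Cxcl10, an interferon-induced chemokine, by 0.19, and neither passed.

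None of 18 measured interferon response genes passed (median 0.16), and of 9 complement genes only the receptor C3ar1 rose (0.99, from a mean of 3.94 to 4.93, under 5 on both sides, adjusted p = 0.0418, lost without control replicate 1 or 2 or deafferented replicate 2 or 3, up to 0.359). C1qa (0.59, adjusted p = 0.275) and C1qb (0.35, 0.907) had no overlap and did not pass. None of 9 genes of other blood leukocytes passed. The neutrophil genes S100a8 and S100a9 were lower in every deafferented array (S100a9, 6.70, 6.86 and 6.45 against 5.69, 5.86 and 5.58; -0.96, adjusted p = 0.0576, and 0.0101 with the replicate block).

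A few genes of growth factor signalling, matrix turnover and adhesion rose. Hbegf, a heparin-binding ligand of the EGF receptor, was at 7.62, 7.16 and 7.17 in the controls and at 9.03, 9.63 and 9.22 in the deafferented arrays. It rose 3.94-fold (1.98, SE 0.223, adjusted p = 3.33e-07) with no overlap, and was the only riser among 31 trophic and growth factors, whose median was -0.23. Of those 31, 9 lay above 0, 9 were lower without overlap and 4 higher, and with the replicate block 3 rose and 2 fell. Igf1 (0.62, adjusted p = 0.19, and 0.045 with the block) and Csf1, the growth factor of microglia (0.64, 0.185, and 0.0183), did not pass, nor did any of 26 neurotrophic receptors (median -0.10; Ntrk2, -0.22). Of 33 genes of extracellular matrix, proteases and their inhibitors, 4 rose and 1 fell. Beside the protease inhibitors Timp1 (4.12, SE 0.485, adjusted p = 8.43e-07) and Serpina3n (3.19, SE 0.512, adjusted p = 0.000224) they included the urokinase receptor Plaur (0.64, adjusted p = 0.00503, lost without replicate 1 of either side, 0.0669 and 0.0821) and the metalloprotease Mmp19 (0.93, 0.0258, lost without any array but deafferented replicate 1, up to 0.445). Timp3, another inhibitor of metalloproteases, fell (-0.51, adjusted p = 0.0397, lost without any array but control replicate 1, up to 0.211), and its 3 other probe sets did not pass. Without control replicate 1, 2 genes of the list rose.

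Of 28 integrins and adhesion receptors, Cd44, Lgals3 and Itga5 rose and none fell (median 0.23). Without overlap, 12 were higher, against 6.34% of all genes. Itga5, the integrin subunit that binds fibronectin, rose from between 4.04 and 4.39 to 5.86, 6.47 and 5.02 (1.57, SE 0.306, adjusted p = 0.00327, and 0.112 without deafferented replicate 2), while its partner Itgb1 changed by 0.53 (0.5). Of 41 genes of actin, annexins, S100 proteins and filaments 5 rose and 1 fell (median 0.23), 11 rose with the replicate block, and 3 rose without control replicate 1, control replicate 3 or deafferented replicate 2. Tubb6, a beta-tubulin, rose from 4.36, 4.0 and 4.12 to 6.20, 6.87 and 6.03 (2.20, SE 0.282, adjusted p = 3.97e-06). S100a10, the annexin A2 ligand, rose from 9.10, 8.94 and 8.48 to 9.85, 10.17 and 9.80 (1.10, SE 0.178, adjusted p = 0.000243), and the actin-capping Capg from between 5.16 and 5.21 to between 6.64 and 7.12 (1.70, SE 0.328, adjusted p = 0.00274). The calls of S100a16 (0.61, adjusted p = 0.043, lost without any array but deafferented replicate 1, up to 0.358) and of moesin, Msn (0.81, 0.0458, lost without control replicate 1 or 3 or deafferented replicate 2 or 3, up to 0.386), were close to the threshold. Myl9, a smooth muscle myosin light chain, fell (-1.17, adjusted p = 0.00669, and 0.131 without control replicate 1 and 0.216 without deafferented replicate 2).

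Transcription factors of injury rose while others of the immediate early class fell. Of 27 measured immediate early genes 2 rose (Jun and the matrix protein Ccn1) and 3 fell (Fos, Nr4a1 and the phosphatase Dusp1), with a median of -0.09. Jun, a subunit of AP-1, was at 8.77, 8.42 and 8.40 in the controls and at 9.50, 9.82 and 9.75 in the deafferented arrays (1.16, SE 0.172, adjusted p = 5.6e-05), and its other probe set rose by 0.96. Fos, its usual partner, was at 9.98, 10.16 and 10.06 against 8.31, 8.47 and 8.41 (-1.67, SE 0.279, adjusted p = 0.000378). The arrays of each side agreed within 0.2 log2 units, and the 2 subunits of AP-1 thus changed in opposite directions in the same arrays. Dusp1, which dephosphorylates MAP kinases, was at 8.80, 9.06 and 8.88 against 7.60, 8.11 and 7.99 (-1.01, SE 0.162, adjusted p = 0.000224). Nr4a1, an orphan nuclear receptor, also fell (-1.49, SE 0.257, adjusted p = 0.000592).

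Other activity-regulated genes did not follow Fos. Egr1 was at 7.85 to 8.40 in the controls and 8.21 to 8.67 in the deafferented arrays (0.20, adjusted p = 1), and Arc changed by -0.25 and Egr2 by -0.24. Ccn1 rose by 0.96 (adjusted p = 0.00552), and lost its call without control replicate 3 (0.0598) or deafferented replicate 2 (0.171). Among 29 genes of axon injury and regeneration, 6 rose and none fell, against 0.765% and 0.236% of all genes, with a median of 0.31. Without overlap, 15 were higher and 3 lower, against 6.34% and 9.07% of all genes. The 6 were Atf3 (2.36, SE 0.292, adjusted p = 2.27e-06), Tubb6, the small heat shock protein Hspb1, the growth arrest gene Gadd45a, Jun and Cebpd. Hspb1 was at 8.80, 8.75 and 8.40 against 10.42, 11.04 and 9.82 (1.78, SE 0.221, adjusted p = 2.27e-06), and its dimmer probe set rose by 2.49. Gap43, a protein of growth cones, was at 5.20, 5.09 and 5.34 against 6.38, 6.85 and 5.98, with an adjusted p of 0.126 (1.19, SE 0.345) and 0.0235 with the replicate block. Sox11, another factor of regenerating neurons, changed by 0.07.

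The promoters of 6 of these genes are shown because they belong to the same response and moved in different directions. Each is the 250 bases before the annotated start in RefSeq (GRCm38.p6), read 5′ to 3′ on the gene's strand. Capitals mark matches, on either strand, to the core hexamer TGACGT of the cyclic AMP response element (CRE) in Fos, Dusp1 and Atf3, to the related octamer TGACNTCA in Jun, to the STAT pattern TTCNNNGAA in Socs3 and to the heat shock pattern GAANNTTC in Hspb1. The octamer contains the hexamer where N is G, so the 2 overlap.
Fos, chr12:85473640-85473889, strand plus: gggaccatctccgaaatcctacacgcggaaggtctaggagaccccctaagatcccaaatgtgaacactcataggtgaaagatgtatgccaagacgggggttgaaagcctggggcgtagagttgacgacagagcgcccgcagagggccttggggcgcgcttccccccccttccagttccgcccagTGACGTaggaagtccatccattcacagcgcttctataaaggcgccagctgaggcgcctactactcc
Dusp1, chr17:26508473-26508722, strand minus: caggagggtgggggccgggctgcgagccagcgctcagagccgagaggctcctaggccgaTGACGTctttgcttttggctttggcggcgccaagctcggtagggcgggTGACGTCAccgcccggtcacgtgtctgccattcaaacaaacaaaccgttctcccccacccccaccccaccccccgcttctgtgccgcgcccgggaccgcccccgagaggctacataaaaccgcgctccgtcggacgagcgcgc
Jun, chr4:95052223-95052472, strand minus: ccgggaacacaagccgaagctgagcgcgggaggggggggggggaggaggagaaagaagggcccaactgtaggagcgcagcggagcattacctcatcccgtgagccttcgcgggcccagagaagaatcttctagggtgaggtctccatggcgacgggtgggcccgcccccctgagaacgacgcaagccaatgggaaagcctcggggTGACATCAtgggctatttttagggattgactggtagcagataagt
Atf3, chr1:191183334-191183583, strand minus: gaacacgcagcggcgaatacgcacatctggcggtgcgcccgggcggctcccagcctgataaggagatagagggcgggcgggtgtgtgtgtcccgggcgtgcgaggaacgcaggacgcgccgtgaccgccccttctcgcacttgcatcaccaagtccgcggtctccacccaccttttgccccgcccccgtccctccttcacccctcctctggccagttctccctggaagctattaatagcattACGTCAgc
Socs3, chr11:117969367-117969616, strand minus: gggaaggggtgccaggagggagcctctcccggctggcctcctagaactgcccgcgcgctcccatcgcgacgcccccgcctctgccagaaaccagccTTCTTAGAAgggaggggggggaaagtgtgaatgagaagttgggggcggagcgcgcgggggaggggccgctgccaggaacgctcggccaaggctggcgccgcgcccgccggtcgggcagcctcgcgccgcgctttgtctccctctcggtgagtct
Hspb1, chr5:135887669-135887918, strand plus: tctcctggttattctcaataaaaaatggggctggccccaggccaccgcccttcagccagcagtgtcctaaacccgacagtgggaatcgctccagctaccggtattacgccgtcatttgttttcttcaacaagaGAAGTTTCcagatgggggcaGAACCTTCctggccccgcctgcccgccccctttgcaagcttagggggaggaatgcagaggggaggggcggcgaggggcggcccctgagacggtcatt

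The CRE hexamer was in promoters of genes that fell, Fos and Dusp1, and of a gene that rose, Atf3. The match in Fos lies 61 to 66 bases before the start, in Dusp1 there are 3 matches of the hexamer, of which 2 overlap in a TGACGTCA 136 to 143 bases before it, and in Atf3 the match lies 3 to 8 bases before it. The octamer in Jun lies 38 to 45 bases before the start, the STAT pattern in Socs3 146 to 154 and the heat shock patterns in Hspb1 90 to 97 and 110 to 117. Jun also has a heat shock match, 121 to 128 bases before the start, which is not in capitals. Of the 100 genes called by any probe set, 84 had an entry, and of the 8886 measured genes 7199. The hexamer was in 7 of 64 promoters of genes that rose (10.9%), in 2 of 20 of genes that fell (10%) and in 10.3% of all 7199; over all 27025 genes of the table it was in 6.56%. The octamer was in 3 of 64 (4.69%), 1 of 20 and 5.85% of all 7199. The STAT pattern was in 5 of 64 (7.81%, in Ctsc, Dab2, Socs3, Tgm1 and Tnfrsf1a), 1 of 20 and 5.7% of all. The heat shock pattern was in 2 of 64 (Hspb1 and Jun), none of 20 and 5.04%. The AP-1 pattern TGANTCA was in 5 of 64 (7.81%; C3ar1, Ccl9, Cd68, Gfpt2 and Plaur), none of 20 and 4.36%, and the C/EBP pattern TTGCNNAA in 9 of 64 (14.1%), 1 of 20 and 7.17%. These are matches of letters in a short window, and binding was not measured.

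In each of the general stress programmes 1 gene rose and the others did not pass. Hmox1, haem oxygenase, was at 5.61, 5.77 and 5.50 in the controls and at 8.05, 8.37 and 8.04 in the deafferented arrays (2.52, SE 0.285, adjusted p = 3.34e-07), and was the only 1 of 23 NRF2 and oxidative stress genes to rise. Nqo1 (-0.12) and Gclm (-0.17), other targets of NRF2, did not pass, and the median of that list was -0.01. Atf3 was the only riser among 30 genes of the unfolded protein and integrated stress responses (median 0.09, 2 with the replicate block; Ddit3 0.55, adjusted p = 0.541; Atf4 -0.10; Hspa5 0.27). Hspb1 was the only riser among 20 heat shock genes, with Hspa1a at 0.15 and Cryab at -0.07.

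Gadd45a was the only riser among 21 p53 targets, from between 7.66 and 7.76 to between 9.19 and 9.52 (1.59, SE 0.223, adjusted p = 2.21e-05), while the cell cycle inhibitor Cdkn1a (0.03) and Mdm2 (0.05), which p53 induces, did not pass. Of 22 regulators of cell death only the TNF receptor Tnfrsf1a rose (0.68, adjusted p = 0.0454, lost without any array but deafferented replicate 3, up to 0.579). Bcl2, which protects from apoptosis, was lower in every deafferented array without passing (-0.81, adjusted p = 0.195). None of 30 cell cycle genes passed by its brightest probe set (median 0.09). A dimmer probe set of the replication gene Mcm3 was called (1.11, adjusted p = 0.0454). Mki67 was under background on both sides, and Mcm6, a replication helicase subunit, was at 5.64, 5.18 and 5.39 against 6.00, 6.24 and 6.16 (0.73, adjusted p = 0.114, and 0.0408 with the replicate block).

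Iron and lipid genes moved in a few members. Tfrc, the transferrin receptor through which cells take up iron, was at 11.29, 10.90 and 10.93 in the controls and at 10.37, 10.01 and 10.11 in the deafferented arrays. The change of -0.88 had an SE of 0.150 and an adjusted p of 0.000554, and its 2 dimmer probe sets gave -0.68 and -1.04 without passing. With Hmox1 and Lcn2 higher and Tfrc lower, 3 of 19 genes of haem, iron and metal handling were called, and the ferritin heavy chain Fth1 (0.30) did not pass. The metallothioneins Mt1 and Mt2 (0.52 each, adjusted p = 0.52 and 0.579) passed only with the replicate block (0.0235 and 0.0202), when 4 genes of the list rose. Of 29 genes of cholesterol and lipid handling 4 rose: Lpl, the fatty acid binding proteins Fabp5 and Fabp7 and the lipid droplet coat protein Plin2. Fabp5 was at 10.71, 10.60 and 10.70 against 11.67, 11.34 and 11.33 (0.78, SE 0.129, adjusted p = 0.000378), and Plin2 rose by 0.94 (0.00955, and 0.117 without control replicate 1 or 0.122 without deafferented replicate 2, when 2 genes of the list rose). Lpo, a haem peroxidase, was at 5.71, 6.46 and 5.93 against 7.91, 8.34 and 8.0 (2.05, SE 0.408, adjusted p = 0.00434), and missed the threshold without control replicate 1 (0.0525) or deafferented replicate 2 (0.0523). The median of the lipid list was 0.08, and enzymes of cholesterol synthesis such as Hmgcs1 (0.08) and Fdft1 (-0.12) did not pass.

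In the lists of neuronal genes only Kcnab1 and Cck were called, both lower (of all genes, 0.236% fell and 0.765% rose). Gap43, of the neuronal identity list, was not called (1.19) but rose with the replicate block (adjusted p = 0.0235). None of 27 genes of synaptic vesicles (median -0.13), 22 of glutamate receptors and postsynapse (-0.08), 18 of inhibitory transmission (-0.07) and 23 of neuronal identity (0.01) passed. Syt2, a calcium sensor of fast synapses, was at 10.03 to 10.50 in the controls and 9.86 to 10.21 in the deafferented arrays (-0.19), and the vesicular glutamate transporter Slc17a6 changed by -0.28. Of 32 voltage-gated channel genes only Kcnab1, an auxiliary subunit of Kv1 channels, fell. It was at 10.12, 10.53 and 10.30 against 9.76, 9.58 and 9.83 (-0.59, SE 0.137, adjusted p = 0.0227), its dimmer probe set did not pass, and its call was lost without control replicate 2 or 3 or deafferented replicate 1 or 2 (up to 0.226). Kcna1, a pore subunit of these channels, changed by -0.17. Lower without overlap were 8 of the 32 channel genes and 5 of the 27 vesicle genes, against 9.07% of all genes. In each of these 2 lists 1 gene was higher without overlap, against 6.34% of all genes. The postsynaptic list had 2 lower, the inhibitory list 1 lower, and the identity list 3 lower and 2 higher.

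Cck, the peptide cholecystokinin, was the only call among 24 calcium-binding and neuropeptide genes, at 4.99, 5.05 and 5.12 against 4.26, 4.02 and 4.03 (-0.95, SE 0.192, adjusted p = 0.00499). Its controls lay close to the background level of 5 and its deafferented arrays under it. Tac1, the precursor of substance P, was at 7.47, 6.74 and 6.69 against 5.53, 5.60 and 5.35, with an adjusted p of 0.0655 (-1.47, SE 0.387) and 0.00751 with the replicate block. The median of that list was -0.22, 4 of its 24 genes lay above 0, and 7 had no overlap, against 9.07% of all genes lower without overlap. Signalling regulators that fell were Rgs4, which shortens G-protein signals (-0.76, SE 0.162, adjusted p = 0.00985), and Arhgap24, which switches off Rac (-1.08, SE 0.203, adjusted p = 0.00199). Rgs4 was at 8.65, 8.89 and 8.79 against 8.07, 8.10 and 7.89, and its call was lost without control replicate 2 (0.0787) or deafferented replicate 3 (0.0826).

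The other decreases were of genes with varied roles. The secreted kinase Fam20c fell (-0.70, adjusted p = 0.00383, lost without replicate 1 of either side, 0.0823 and 0.068), as did the receptor tyrosine kinase Flt3 (-0.78, 0.012, lost without control replicate 2 or 3 or deafferented replicate 2, up to 0.14). The kinase Stk24 fell (-0.83, 0.0224, lost without any control array or deafferented replicate 1, up to 0.25). The orphan receptor Gpr146 fell from between 5.20 and 5.52 to between 4.15 and 4.71 (SE 0.186, adjusted p = 0.00195), and its call held without any 1 array. Chad, a matrix protein of cartilage (-1.22, 0.0123), the glycogen phosphorylase Pygl (-1.02, 0.0279, under 5 in all 6 arrays), the retinol dehydrogenase Rdh5 (-1.03, 0.0418) and Cbarp, a regulator of calcium channels (-0.56, 0.0248), also fell. Each lost its call without deafferented replicate 2 and without at least 2 other arrays, with p up to 0.206, 0.238, 0.341 and 0.245. None of 20 oligodendrocyte genes (median 0.14), 8 Schwann cell genes (-0.12), 25 endothelial and pericyte genes (-0.21), 16 cerebellar genes (0.05), 34 respiratory chain genes (-0.13) or 25 ribosomal protein genes (0.13) passed. Of the ribosomal protein genes 23 of 25 lay above 0, against 43.4% of all genes. The respiratory chain had 4 of 34 above 0, and the endothelial and pericyte list 4 of 25. The oligodendrocyte list had 15 of 20 above 0, the Schwann cell list 3 of 8 and the cerebellar list 9 of 16. Without overlap, 10 respiratory chain genes were lower, against 9.07% of all genes. Higher without overlap were 6 ribosomal protein genes, against 6.34% of all genes. None of 30 translation genes (median 0.16) or 24 hypoxia and glycolysis genes (-0.06) passed by its brightest probe set. A dimmer probe set of the translation factor Eif4a1 (0.54, adjusted p = 0.0118) and a dimmer probe set of the lactate dehydrogenase Ldhb (-0.39, adjusted p = 0.0351) were called. Dusp1 was the only call among 28 glucocorticoid and clock genes. With the replicate block 2 endothelial genes fell, 1 gene fell in each of the postsynaptic, neurotrophic receptor, astrocyte identity and leukocyte lists, and 1 gene rose in each of the ribosomal, translation, hypoxia, neuronal identity and glucocorticoid lists.

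**Figure D3:**
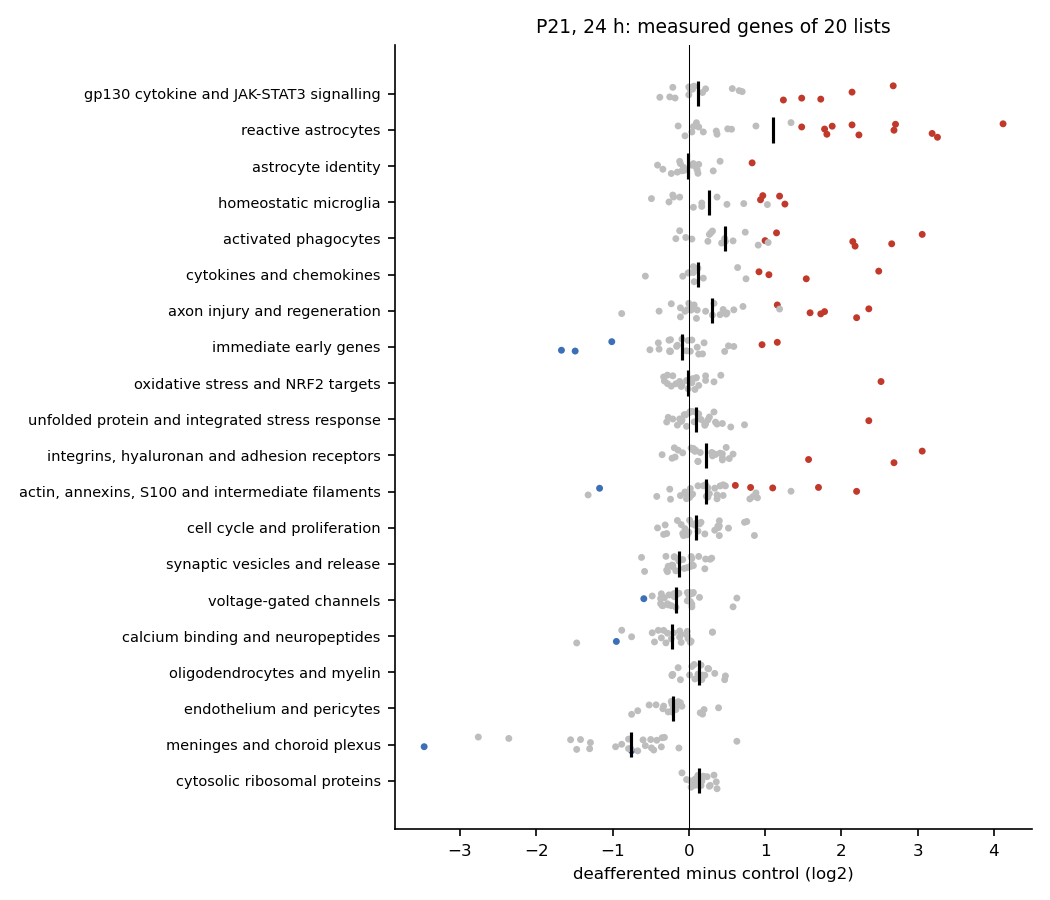
Change (deafferented minus control, log2) of every measured gene of 20 lists, with called increases in red, called decreases in blue, other genes in grey and a bar at each list's median. The bar of the reactive astrocyte list lies at 1.11 and that of the meningeal and choroid plexus list at -0.75, and most of the others lie close to 0.

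Genes of the tissue that borders the nucleus were lower on the deafferented side. Of 26 measured genes of meninges and choroid plexus 1 lay above 0, 2 fell (Ttr and the collagen Col1a2), 13 were lower without overlap, and the median was -0.75. Ttr, the thyroxine carrier that choroid plexus makes in large amounts, was at 13.85, 14.38 and 14.72 in the controls and at 14.43, 9.22 and 8.90 in the deafferented arrays. Deafferented replicate 1 thus lay among the controls, and the change of -3.47 (SE 0.798, adjusted p = 0.0213) was -5.26 without it, -2.66 without replicate 2 (adjusted p = 0.326) and -2.50 without replicate 3 (0.297). The call was also lost without any 1 control array (0.0525 to 0.0859). At 6 h, with 2 arrays a side, the change of Ttr was -3.54, but it was 0.57 at 12 h, 0.00 at 48 h and 0.16 at P7 24 h. The median of the list was -0.02 at 12 h, 0.06 at 48 h and -0.32 at P7 24 h. The other plexus genes Kl (4.36, 8.10 and 7.67 against 4.92, 2.88 and 4.05) and Sostdc1 (5.32, 7.72 and 7.94 against 5.75, 4.01 and 4.14) were low also in control replicate 1 and did not pass.

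The meningeal genes differed more evenly over the arrays. Col1a2 was at 9.35, 9.32 and 9.18 against 8.77, 8.58 and 8.26 (-0.75, SE 0.186, adjusted p = 0.042), a call that was lost without any 1 array but deafferented replicate 1 (adjusted p from 0.0648 to 0.323), and its dimmer probe set did not pass. Igf2, a growth factor of meninges and plexus, was at 10, 10.13 and 10.05 against 9.75, 9.09 and 8.69 (-0.88, adjusted p = 0.0513, and 0.00484 with the replicate block), and Bgn was lower in each deafferented array (-0.60, 0.0944, and 0.0253 with the block). With the replicate block 5 genes of the list fell. The summed level of the list ran from 15.08 to 15.58 in the controls and from 14.00 to 15.27 in the deafferented arrays. The part of this tissue in the increases and the decreases was not tested.

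**Figure D4:**
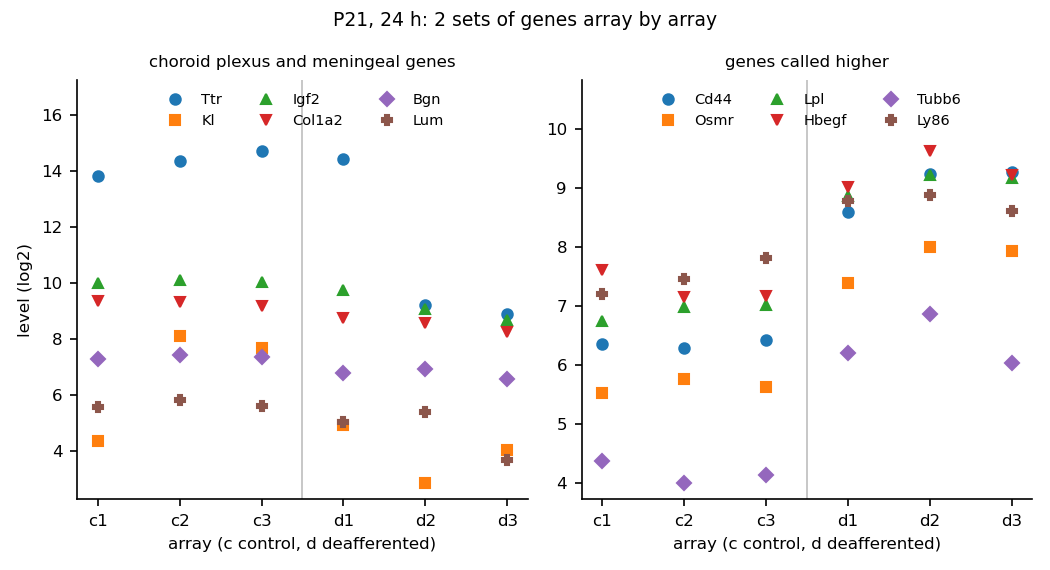
Level (log2) of 6 choroid plexus and meningeal genes (left) and of 6 genes that rose (right) in each control (c1 to c3) and deafferented (d1 to d3) array. Ttr is at control level in d1 and at 9.22 and 8.90 in d2 and d3, and Kl is low in c1 and in all 3 deafferented arrays. The 6 genes on the right were chosen because they rose without overlap.

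The probe sets that rose at 24 h had smaller changes at the other times, and some were called again at 48 h. Called probe sets numbered 0 at 6 h, 3 higher (0.0196%) and 1 lower (0.00653%) at 12 h, and 39 higher (0.255%) and 15 lower (0.0979%) at 48 h. The 97 that rose at 24 h had median changes of 0.07, 0.21, 1.19 and 0.44 in the order of 6, 12, 24 and 48 h, and the counts above 0 were 62, 77 and 86 at the 3 other times, against 51.9%, 46.1% and 48.9% of all probe sets. Of these 97, 3 were called higher at 12 h and 21 at 48 h. The 27 that fell had medians of -0.28, -0.36, -0.95 and -0.57 at the 4 times, with 22, 21 and 20 below 0 at 6, 12 and 48 h and 7 called lower at 48 h. Since the 97 and 27 were chosen at 24 h, their values there are larger by that choice.

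Some rises lasted to 48 h and others did not. Mpeg1 (1.73 at 48 h, adjusted p = 0.000603), Ly86 (1.54, 0.000283), Clec7a (1.55, 0.0004), Fcrls (1.18, 0.00291) and Gadd45a (1.38, 0.000757) were called at both times, as were, among the decreases, Tfrc (-0.82, 0.00347), Rgs4 (-0.83, 0.00591), Arhgap24 (-1.02, 0.00706), Kcnab1 (-0.74, 0.00368) and Fam20c (-0.78, 0.00255). Arhgap24 was at -1.03, -0.91, -1.08 and -1.02 at the 4 times, and Gadd45a at 1.48, 1.18, 1.59 and 1.38. By contrast, Hbegf was at 0.16, 0.15, 1.98 and -0.23, Tubb6 at -0.13, -0.01, 2.20 and -0.03, S1pr3 at 0.11, -0.23, 2.23 and 0.09, and Tm4sf1 at -0.04, 0.04, 1.88 and 0.19. Ccl3 was highest at 12 h (2.38) and at -0.04 at 48 h.

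The difference between the effects at 24 and 12 h, tested as an interaction, was called for 23 probe sets, 22 positive (0.144%) and 1 negative (0.00653%), from 14 genes. All 22 had also been called higher at 24 h. They included Timp1 (3.82), the transglutaminase Tgm1 (3.23), the milk protein alpha-lactalbumin Lalba (2.88), Ptx3 (2.73, SE 0.429, adjusted p = 0.000846), S1pr3 (2.46, SE 0.337, adjusted p = 8.17e-05) and Hmox1 (2.30), and the negative 1 was Gpr146, which changed by 0.51 at 12 h and by -1.0 at 24 h (difference -1.50, SE 0.262, adjusted p = 0.00272). At 12 h both sides were under 5 for all of these but Hmox1, and for Timp1, Tgm1, Lalba, Ptx3 and S1pr3 the 24 h controls were too, so the sizes and their order rest in part on background levels. None of these 7 lost its call without any 1 of the 12 arrays. With the replicate block 39 probe sets were called.

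The difference between the effects at 24 and 48 h was called for 17 probe sets, 15 positive (0.0979%) and 2 negative (0.0131%), from 12 genes, and the 15 had all been called higher at 24 h. They included Hbegf (2.21, SE 0.315, adjusted p = 0.000186), Tubb6 (2.23, SE 0.398, adjusted p = 0.00553), Ptx3 (2.21, SE 0.429, adjusted p = 0.0132), Hmox1 (2.21), Tgm1 (2.94) and Lalba (3.95). At 48 h both sides were under 5 for Lalba, Tgm1, Tubb6 and Ptx3. The difference of Ptx3 lost its call without deafferented replicate 2 of 24 h (0.112), control replicate 3 of 48 h (0.0639) or deafferented replicate 2 of 48 h (0.11). Mapk13, a p38 MAP kinase, went the other way, with 0.53 at 24 h and 1.93 at 48 h (-1.40, SE 0.292, adjusted p = 0.029), and was not called without any 1 of 7 of the 12 arrays (adjusted p from 0.0809 to 0.187). With the replicate block 28 probe sets were called.

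**Figure D5:**
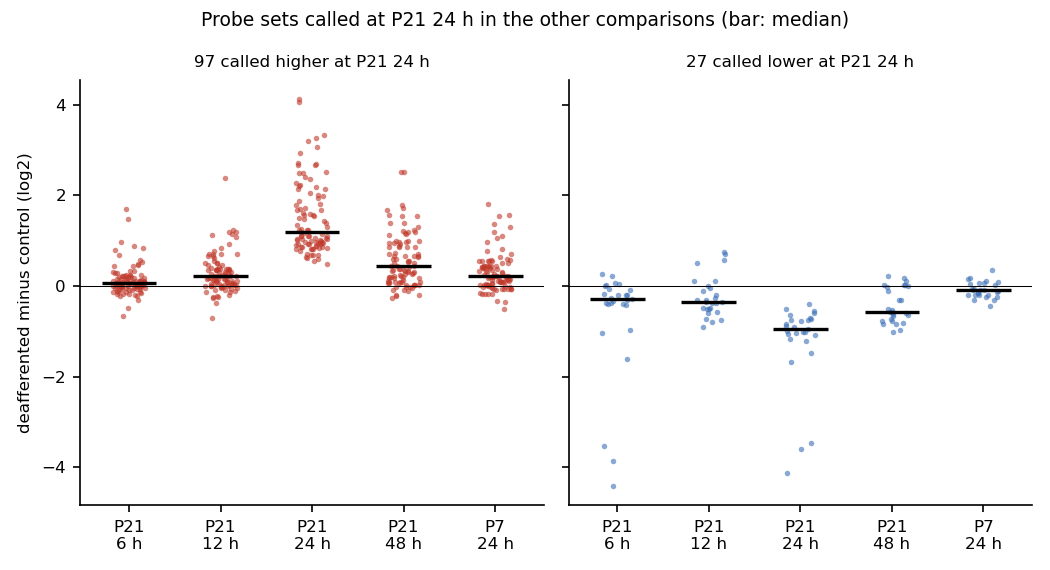
Change (deafferented minus control, log2) of the 97 probe sets called higher (left) and the 27 called lower (right) at P21 24 h in 5 comparisons, with a bar at each median. The medians of the 97 are 0.07, 0.21, 1.19 and 0.44 at 6, 12, 24 and 48 h after surgery at P21 and 0.21 at 24 h after surgery at P7.

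At the same time after surgery at P7, the same probe sets moved less. The 97 and 27 were chosen at P21 24 h, so smaller values at P7 follow in part from that choice. Of the 97, 76 lay above 0 with a median of 0.21 (44.4% of all probe sets lay above 0), and 1 was called, the only 1 of 15323 called higher at P7 24 h (0.00653%). Of the 27, 18 lay below 0 with a median of -0.10. The difference between the effects at P21 and P7 was called for 22 probe sets, 20 positive (0.131%) and 2 negative (0.0131%), from 17 genes, and of them 19 had been called higher and 2 lower at P21. Tm4sf1 changed by 1.88 at P21 and by -0.36 at P7 (difference 2.24, SE 0.330, adjusted p = 0.000354), Ptx3 by 2.71 and 0.44 (2.28, SE 0.429, adjusted p = 0.011), Socs3 by 2.68 and 0.08 (2.59, SE 0.526, adjusted p = 0.0225) and Lgals3 by 3.06 and 0.39 (2.67, SE 0.545, adjusted p = 0.023). Lalba (3.69) and Tgm1 (3.26) also differed, both, like Ptx3, with means under 5 on both sides at P7. Lalba, Tgm1 and Tm4sf1 were called without any 1 of the 12 arrays. Among the groups of the effect differences, Lalba and Tgm1 had means above 5 only in the P21 24 h deafferented arrays. Their place among the tested probe sets may thus rest on the group where they are high. Where it does, their calls are no separate support for a difference.

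Levels in the controls differed between the ages for some of these genes. Fos changed by -1.67 at P21 and by 0.35 at P7 (difference -2.02, SE 0.394, adjusted p = 0.0176), and its P7 arrays lay at 7.74 ± 0.81 in the control and 8.09 ± 0.60 in the deafferented nucleus (SD, n = 3), both means under the P21 deafferented arrays. For Nr4a1 the difference was -1.67 (SE 0.363, adjusted p = 0.0465), with P7 levels of 5.95 ± 0.47 and 6.12 ± 0.36 (SD, n = 3). Lgals3 was at 7.16 ± 0.56 in the P7 control (SD, n = 3) and at 4.21 to 5.95 in the P21 controls.

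Several of these age differences depended on the arrays. Nr4a1, Socs3 and Lgals3 lost their calls without any 1 of 7, 7 and 6 of the 12 arrays (adjusted p up to 0.185, 0.141 and 0.151). Fos lost it without P7 control replicate 1 (-1.56, 0.0649) or P7 deafferented replicate 2 (-1.67, 0.0575), and Ptx3 without deafferented replicate 2 of P21 (1.98, 0.1) or deafferented replicate 1 of P7 (2.08, 0.0604). The count was 50 with the replicate block, 10 without deafferented replicate 2 of P21, 14 and 11 without deafferented replicates 1 and 3 of P7, and 35 without control replicate 2 of P7.

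The calls of single genes at 24 h were traced through the 6 arrays. Of the 71 named genes that were called, 37 kept their call whichever array was left out, and 34 lost it without at least 1. The 37 include Clcf1, Osmr, Socs3, Bcl3, Cd44, Ptx3, S1pr3, Tm4sf1, Hbegf, Lpl, Clec7a, Ly86, Mpeg1, Fcrls, Tubb6, S100a10, Capg, Jun, Atf3, Hspb1, Gadd45a, Hmox1 and Ccl12 among the increases, and Fos, Nr4a1, Dusp1, Tfrc, Cck, Arhgap24 and Gpr146 among the decreases. Leaving out deafferented replicate 2 ended 30 calls and leaving out control replicate 1 ended 25, against 16 without deafferented replicate 1. None of the 71 lost its call with the replicate block.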

How the data were processed

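Expression was measured on Affymetrix arrays, 44 in all, from cochlear nuclei of mice. The deposited values are log2 expression values per probe set made by the authors with GCRMA, per the submitters' processing notes; its version, and whether all arrays were normalised together, are not given in the sources used here. Of 22626 probe sets, 15323 with a level above 5 in at least 2 of the 44 arrays were kept, 16 of them only through the P21 24 h deafferented arrays. These 16 were tested because that group is high, so a call among them is no separate support for a rise. Which called genes are among the 16 is not listed here. The level of 5 is used here as the background level. Symbols came from the platform annotation, updated by gene identifier: 20380 probe sets had 1 symbol, 691 several and 1555 none, and a gene was represented by its kept probe set of 1 symbol with the highest mean over all arrays.

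limma 3.58.1 in R 4.3.3 fitted 1 mean per group to all 44 arrays, with moderated variances that follow the mean level, and tested 15323 probe sets two-sidedly with Benjamini-Hochberg adjustment (threshold 0.05). Differences between effects were contrasts of the same fit, and each age and time has control arrays of its own. The p-values describe the spread between the tissue pools. At P21 24 h, same-number arrays of the 2 sides had deviations from their group means that correlated at 0.346, 0.158 and 0.387. All were above the limit of 0.1, so the numbers were taken as pairs in an alternative fit with a replicate block. The main fit, its counts and its adjusted p-values hold no such block. Values with the block are given where they change the call of a gene the text names, or a count by over 1.5 times. At P7 24 h these correlations were 0.417, -0.00178 and 0.0203. The genes named are the 25 largest increases and the 20 largest decreases, the 6 largest differences of each sign, up to 8 members of each list by adjusted p, and canonical members. Cntfr, Fdft1, Hmgcs1, Jak1, Jak2, Socs2, Tmem119 and Trem2 are named outside this rule, after their values were seen. The comparison, the 42 gene lists and the named members were chosen with earlier results of these data known. Genes can stand in several lists. Alternatives were the replicate block, other filters, other scalings, other variance models, array weights, other sets of arrays and each array left out.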

Additional observations from a re-analysis of the deposited data

Results flagged for a closer look

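A test of the difference between effects separated 24 h after surgery at P21 from another time or age for 22 gene and comparison pairs. Values are the P21 24 h change minus the other change on the log2 scale, with limma's adjusted p. Among the groups compared, Lalba and Tgm1 had means above 5 only in the P21 24 h deafferented arrays. Their passing of the filter on dim signal may thus rest on that group, and where it does their differences are no separate support.

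Against 12 h, the larger effect at 24 h was that of Timp1 by 3.82 (0.00331), Tgm1 by 3.23 (1.76e-08), Lalba by 2.88 (0.000184), Ptx3 by 2.73 (0.000846), S1pr3 by 2.46 (8.17e-05) and Hmox1 by 2.30 (0.00272). Gpr146 had a difference of -1.50 (0.00272), being higher on the deafferented side at 12 h and lower at 24 h.

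Against 48 h, the difference was 3.95 for Lalba (3.95e-07), 2.94 for Tgm1 (2.02e-07), 2.23 for Tubb6 (0.00553), 2.21 for Hmox1 (0.00577), 2.21 for Ptx3 (0.0132) and 2.21 for Hbegf (0.000186). Mapk13 had -1.40 (0.029), with the larger change at 48 h.

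Against 24 h after surgery at P7, the difference was 3.69 for Lalba (1.96e-06), 3.26 for Tgm1 (1.41e-08), 2.67 for Lgals3 (0.023), 2.59 for Socs3 (0.0225), 2.28 for Ptx3 (0.011) and 2.24 for Tm4sf1 (0.000354). Fos had -2.02 (0.0176) and Nr4a1 -1.67 (0.0465). No group here had more than 3 arrays, so single arrays were not tested as outliers.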

How the results depend on the processing

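The count of probe sets called at P21 24 h (124) was 249 with the replicate block, 356 with array weights, 194 without the replicate 3 arrays of 12 and 48 h, 82 with the stricter filter, 61 from only the arrays of the groups compared (52 of them among the 124), 69 from only the 24 h arrays, and 63 to 119 without any 1 array. With no filter, with other scalings and with other variance models it was 121 to 137. With the block and only the compared arrays (added after seeing the data) it was 117, of which 86 were among the 124, and 16 of the 71 named calls were lost; Gap43, Igf2, Igf1, Csf1, Mt1, Mt2, Vim, Mcm6 and Bgn, called with the block on all arrays, did not pass there.

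The difference between 24 and 12 h (23) was called 39 times with the replicate block, 57 with array weights, 9 with the stricter filter and 11 from only the compared arrays. That between 24 and 48 h (17) was called 28, 37, 8 and 6 times under the same settings. That between P21 and P7 (22) was called 50, 60, 14 and 6 times, 36 without the replicate 3 arrays of 12 and 48 h, 6 from only the 24 h arrays, 2 with the block and only the compared arrays, and 10 to 35 without any 1 array. The causes were not tested.

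No named gene reversed its direction while called. Of 71 called named genes, 28 kept their call in every alternative tried, and none lost it with the replicate block. At 3 arrays a side, the median SE of 0.208 limits what could be called. The share of lower calls was 24 of 137 with quantile normalisation.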
